A study of Homo sapiens with 3 samples.

Results

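NPY-high and NPY-low cells are the ends of a ranking of VCaP parental cells by their NPY transcripts. VCaP is an established human prostate cancer cell line, and these cells were grown for 48 h with the vehicle, 0.1% DMSO. Each cell was ranked by its NPY UMIs over all its UMIs (unique molecular identifiers, which count single mRNA molecules). Cells were chosen by this share alone: the 199 cells with the highest shares are called NPY-high and the 199 with the lowest NPY-low, so that 398 of the 997 VCaP parental cells kept and of the 2888 cells kept in the series entered the comparison. All other genes were then compared between both ends.

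The study profiled prostate cancer models of response and resistance to enzalutamide (ENZ), a drug that blocks androgen signaling. The libraries used here were made by Drop-seq, in which droplets join single cells with barcoded beads. In VCaP–ENZ48 the same line had received 10 µM ENZ for 48 h, and LNCaP–ENZ168 is a sample of another prostate cancer line, LNCaP, given 10 µM ENZ for 168 h. Each group had 1 library, and cells of 1 library are not replicates, so no statistical test was made and every interval covers counting error only.

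NPY encodes neuropeptide Y, a secreted peptide best known as a transmitter of neurons and adrenal medulla that stimulates appetite and constricts blood vessels. It is made as a precursor, cut by proprotein convertases, and acts on G protein-coupled receptors. Prostate cancer cells can also express it, and in the prostate its level has been linked to androgens and to tumors that carry an ERG fusion, as VCaP cells do.

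The cells showed the transcripts of their labelled line. All 5 VCaP line genes on the marker list were measured in both ends, with a summed level of 3933 CPM (UMIs per 1000000 UMIs other than NPY) in NPY-high and 3527 CPM in NPY-low cells. The 4 LNCaP line genes summed to 14.7 and 16.0 CPM, and the luminal keratin KRT18 was at 340 and 304 CPM. PTPRC, the defining marker of white blood cells, was at 0 UMIs in both, and the 3 immune and 2 endothelial markers present summed to 0.268 CPM in NPY-high and 0.277 CPM in NPY-low cells for each list. No barcode was shared between kept cells of any 2 libraries. In VCaP parental, 859 of the 997 barcodes ended in N rather than a base. The kept cells held 19515202 UMIs in VCaP parental, 14301287 in VCaP–ENZ48 and 6313283 in LNCaP–ENZ168.

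NPY (GRCh38 chromosome 7, 24284188 to 24291862) was abundant and uneven among VCaP parental cells. The sum over all kept cells was 2212 NPY CPM, here over all UMIs (95% Poisson interval 2192 to 2233, from 43174 UMIs), against 110 CPM (105 to 116) in VCaP–ENZ48. The file of LNCaP–ENZ168 has no row for NPY, and 3 counts would be 0.475 CPM there. Per cell, NPY in VCaP parental ran from 0 to 19692 CPM with a median of 1576. The 10th percentile was 217 and the 90th was 5050 CPM. The coefficient of variation over cells was 104%, where counting alone gives 16.5%. Only 20 cells (2.01%) had no NPY UMI, and all of them were in the NPY-low group. Free RNA can add UMIs to any droplet, so a few NPY UMIs in a cell are not read as expression.

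The shares that chose the cells formed a continuous slope with no gap at either edge. The last NPY-high cell had 50 NPY UMIs among 14443, or 3462 CPM, and the next cell down had 3446 CPM. At the other edge, the last cell above the NPY-low group had 461 CPM and the first NPY-low cell had 460. The cells were also split into 5 quintiles of nearly equal size, of which the lowest is the NPY-low and the highest the NPY-high group. Summed over each quintile from low to high, NPY was at 224, 781, 1554, 2645 and 5796 CPM. These values set the groups and are given as a description.

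**Figure D1:**
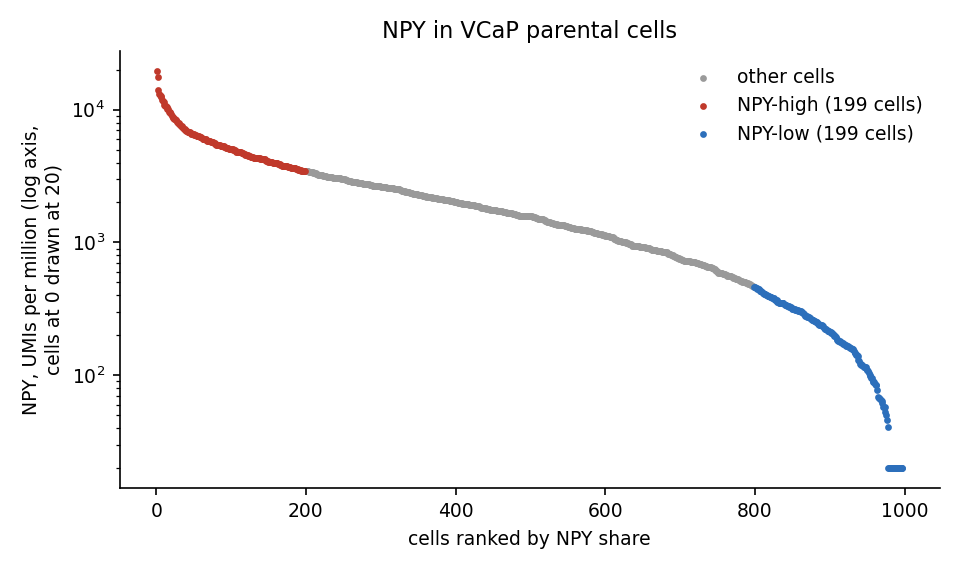
NPY CPM in each of the 997 VCaP parental cells, on a log axis, ranked from the highest share to the lowest. The 199 NPY-high cells (red) reach down to 3462 CPM and the 199 NPY-low cells (blue) begin at 460, without a gap to the other cells (grey); cells without NPY are drawn at 20.

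Depth and mitochondrial content were close between both ends. The median NPY-high cell had 17293 UMIs and 4228 genes, and the median NPY-low cell had 16571 UMIs and 4158 genes. Mitochondrial transcripts made up a median of 6.17% and 6.01% of UMIs. Barcodes ending in N were 82.4% of NPY-high and 86.4% of NPY-low cells, and barcodes deeper than 3 times the median cell numbered 0 and 2.

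Mitotic genes were lower, and many S phase and androgen-induced genes higher, in NPY-high cells. Of 5337 genes tested, those with a mean of at least 20 CPM over both groups, 196 (3.67%) were at least 1.5-fold lower in NPY-high cells and 101 (1.89%) at least 1.5-fold higher. Of the lower genes 50 were on the G2M list, and of the higher genes 17 were on the S phase and 10 on the androgen-induced list. At 2-fold, 98 genes (1.84%) were lower and 15 (0.281%) higher. Values are log2 ratios of CPM + 1 of NPY-high over NPY-low cells. Their median over all genes was -0.00, and the middle 50% lay between -0.15 and 0.14.

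**Figure D2:**
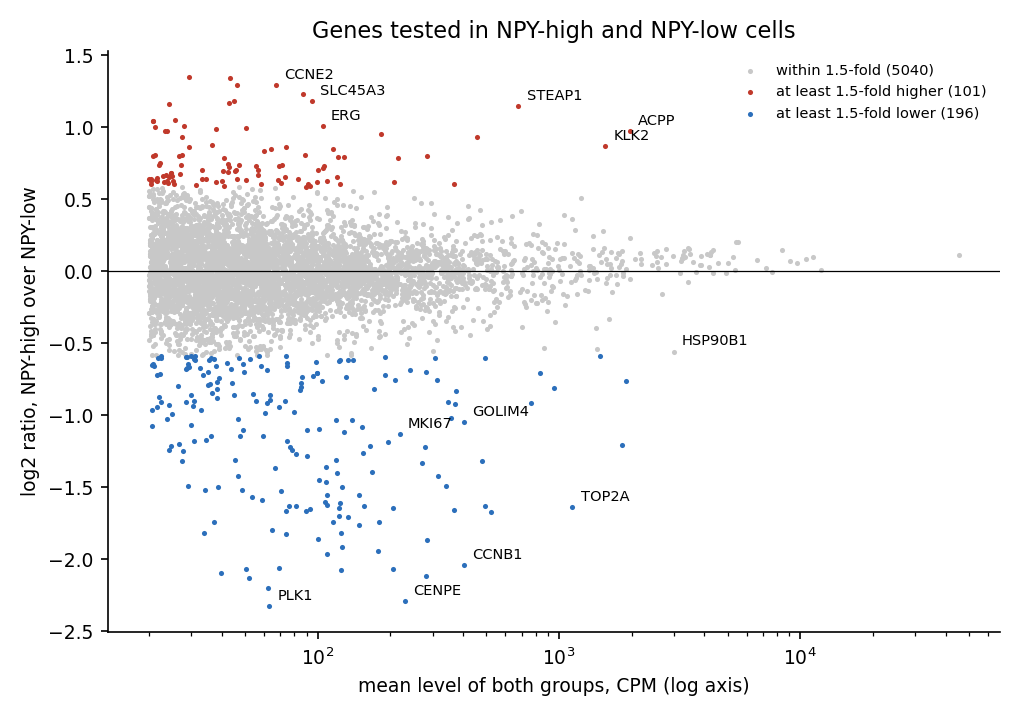
Log2 ratio of NPY-high over NPY-low cells against the mean level of both groups in CPM (log axis), with 1 point per gene tested. The 196 genes at least 1.5-fold lower (blue) reach -2.32 at PLK1, while the 101 genes at least 1.5-fold higher (red) stay at or below 1.35 and include the abundant STEAP1, ACPP and KLK2.

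The G2M list, genes transcribed late in the cell cycle for mitosis, was below 0 throughout. All 52 of its tested members were lower, 50 of them by at least 1.5-fold, and the list median was -1.41. TOP2A, the topoisomerase that untangles replicated DNA (GRCh38 chromosome 17, 40388525 to 40417896), was at 553 CPM in NPY-high and 1722 CPM in NPY-low cells, a log2 ratio of -1.64 (95% interval -1.71 to -1.57). Per cell, TOP2A had a median of 148 CPM and a range from 0 to 5150 CPM in NPY-high cells. In NPY-low cells the median was 888 CPM and the range ran from 0 to 7242 CPM, so the groups overlapped widely. Of the NPY-high cells, 21.6% exceeded the NPY-low median.

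The lowest ratios belonged to kinases and motors of the spindle. PLK1, a kinase that drives entry into and exit from mitosis, was at 20.4 against 106 CPM (log2 ratio -2.32, 95% interval -2.75 to -2.02). CENPE, a kinesin that carries chromosomes along spindle microtubules, was at 77.7 against 384 CPM (-2.29). AURKA, the spindle pole kinase Aurora A, was at 105 against 457 CPM (-2.11), and CCNB1, the cyclin (chromosome 5, 69167135 to 69178245) that activates the mitotic kinase, at 157 against 650 CPM (-2.04). The kinesins KIF14, KIF18A and KIF20A lay at -2.20, -2.09 and -2.08. NEK2, PIMREG, DLGAP5, CEP55 and GTSE1, which act at the centrosome, the spindle or the final cut between daughter cells, completed the 12 lowest genes, at -2.13 to -1.96. MKI67, the proliferation marker Ki-67, was at 137 against 301 CPM (-1.13).

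Promoters of the lowest genes are shown for a motif known from genes of mitosis. In resting cells, many mitotic genes are held down through a short element near the start site, the cell cycle genes homology region (CHR), often beside CCAAT boxes bound by NF-Y. RefSeq promoters (GRCh38.p14) covered 4383 of the 5337 genes tested, 165 of the 196 lower genes and 43 of the 52 tested G2M genes. Within 250 bases before the start, TTTGAA, searched on both strands, was found in 9.33% of all tested genes, 35.8% of the lower genes and 53.5% of the G2M genes. CCAAT, also on both strands and not contained in the first motif, was found in 37.7%, 61.8% and 67.4%. Both stood together in 4.45%, 30.9% and 46.5%. Of 27305 RefSeq promoters of that length, 3704 held TTTGAA and 9021 held CCAAT. Sequence coverage of the higher genes was 74.3%, of the S phase list 78.9% and of the androgen-induced list 70.0%, under the 80% set as a minimum, so no count is given for them. Whether a motif is particular to the lower genes was therefore not tested. A match is a description of letters and not a bound site. Of the 12 lowest genes, 10 had a promoter sequence. TTTGAA was found in 5 of them and not in the other 5 (CCNB1, KIF20A, NEK2, KIF14 and CENPE), and CCAAT in 9, with neither in CENPE. For the CHR only the exact letters TTTGAA were searched, so a promoter without them is not shown to lack a CHR. The following 3 promoters are those among the 12 lowest genes that hold both motifs with TTTGAA within 30 bases of the start. Each is 250 bases long and printed in the sense of its gene, with both motifs in capitals, where TTCAAA is TTTGAA read on the other strand.
PLK1 (chr16:23678639-23678888, plus strand): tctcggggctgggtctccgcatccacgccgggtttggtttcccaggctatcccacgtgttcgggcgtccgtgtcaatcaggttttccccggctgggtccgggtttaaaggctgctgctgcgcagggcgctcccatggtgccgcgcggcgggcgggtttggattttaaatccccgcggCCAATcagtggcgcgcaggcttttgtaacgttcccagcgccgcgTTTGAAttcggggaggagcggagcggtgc
GTSE1 (chr22:46296620-46296869, plus strand): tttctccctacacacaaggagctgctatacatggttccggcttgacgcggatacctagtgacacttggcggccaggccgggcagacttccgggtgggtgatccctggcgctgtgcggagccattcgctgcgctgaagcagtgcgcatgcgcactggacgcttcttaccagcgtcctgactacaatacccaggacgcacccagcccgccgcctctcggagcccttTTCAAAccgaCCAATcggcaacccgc
KIF18A (chr11:28108157-28108406, minus strand): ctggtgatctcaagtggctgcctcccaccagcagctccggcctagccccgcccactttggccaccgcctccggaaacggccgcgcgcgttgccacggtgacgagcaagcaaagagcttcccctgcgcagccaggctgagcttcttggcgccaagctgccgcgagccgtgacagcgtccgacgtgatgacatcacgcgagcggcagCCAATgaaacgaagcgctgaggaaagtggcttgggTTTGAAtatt
The TTTGAA match begins 29, 26 and 10 bases before the start in PLK1, GTSE1 and KIF18A, in that order, each with 1 CCAAT match.

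S phase genes differed the other way. Of 38 tested members of the S phase list, which serve DNA replication, 17 were at least 1.5-fold higher in NPY-high cells and 0 at least 1.5-fold lower, with 34 above 0 and a median of 0.46. CCNE2, cyclin E2 of the entry into S phase, was at 95.6 against 38.4 CPM (log2 ratio 1.29, 95% interval 1.03 to 1.61). MCM6, a subunit of the replicative helicase, was at 122 against 51.7 CPM (1.23), and its partners MCM5, MCM2 and MCM4 at 1.04, 0.72 and 0.62. PCNA, the sliding clamp of DNA polymerase, was at 444 against 292 CPM (0.60, 0.49 to 0.72). Off the list, MCM10, which helps to fire replication origins, was at 67.5 against 33.5 CPM (0.99). RRM2, a ribonucleotide reductase subunit, was the lowest member, at 60.8 against 81.6 CPM (-0.42).

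The share of cells rich in G2M transcripts was lower in each higher NPY quintile. Cells in the top quintile of the G2M share of UMIs made up 34.2% of NPY-low cells (exact Clopper-Pearson interval 27.6 to 41.2%) and 7.04% of NPY-high cells (3.90 to 11.5%). Between them, quintiles 2, 3 and 4 had 26.5%, 18.5% and 13.6%. For the S phase list the share was 14.1% (9.56 to 19.7%) in NPY-low and 24.1% (18.4 to 30.7%) in NPY-high cells. After thinning each cell to 8000 UMIs, which kept 191 NPY-low and 193 NPY-high cells, the G2M shares were 34.0% and 6.74% and the S shares 13.1% and 25.4%. Read in the other direction, NPY was at 2352, 2881, 2672, 2038 and 1219 CPM in quintiles of rising G2M share. It was highest in the second of these and lowest in the cells richest in mitotic transcripts. In quintiles of rising S phase share NPY was at 2346, 1604, 2068, 2537 and 2493 CPM, so the cells poorest in S phase transcripts had nearly as much NPY as the richest.

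**Figure D3:**
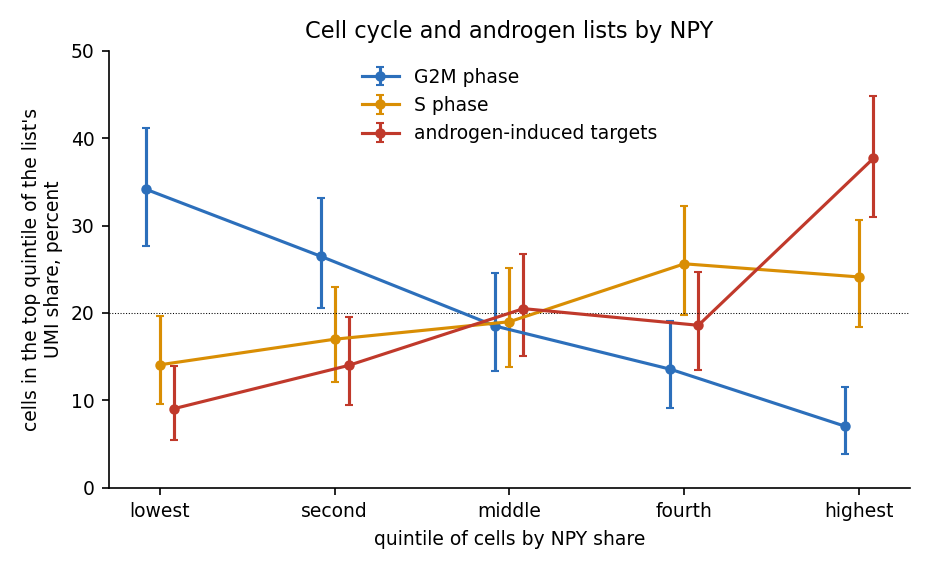
Percent of cells in the top quintile of a list's share of UMIs, for each quintile of VCaP parental cells by NPY share (x axis, low to high), with exact 95% binomial intervals and a dotted line at 20%. The G2M line runs from 34.2% down to 7.04%, the androgen-induced line from 9.05% up to 37.7%, and the S phase line from 14.1% to 24.1%.

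Androgen-induced genes were higher where NPY was high. Of 20 tested members of this list, 10 were at least 1.5-fold higher in NPY-high cells and 0 at least 1.5-fold lower, with 17 above 0 and a median of 0.56, against a median of -0.00 over all genes tested. The other 9 of its 29 members had a mean under 20 CPM. SLC45A3, a membrane transporter also called prostein (chromosome 1, 205657851 to 205680509), was at 132 against 57.8 CPM (log2 ratio 1.18, 95% interval 0.96 to 1.43). TMPRSS2, a serine protease at the cell surface, was at 37.8 against 18.2 CPM (1.01, 0.62 to 1.49). KLK2, a secreted kallikrein protease (chromosome 19, 50861568 to 50880567), was at 2016 against 1103 CPM (0.87, 0.81 to 0.93). Its reads can be uncertain because its relative KLK3 is close in sequence, and KLK3 was listed at 6.69 and 6.64 CPM. PMEPA1, a membrane protein that restrains TGF-beta signaling, was at 274 against 158 CPM (0.79), and FKBP5, a chaperone partner of steroid receptors, at 85.7 against 55.9 CPM (0.61). The metalloreductase STEAP2, the kinase CAMKK2 and the cold channel TRPM8 lay at 0.80, 0.70 and 0.62. Members did not all differ: TPD52 was at 533 against 519 CPM (0.04) and KLK4 at 198 against 194 CPM (0.03). CENPN, a centromere protein on this list, was the lowest at 44.7 against 67.5 CPM (-0.58).

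KLK2, STEAP1 and ACPP were abundant enough to compare cell by cell. KLK2 had a median of 1900 CPM and a range from 205 to 6141 CPM over NPY-high cells, and a median of 916 CPM with a range from 42.3 to 5459 CPM over NPY-low cells. The ranges overlapped, but 85.9% of NPY-high cells lay above the NPY-low median. STEAP1, a metalloreductase family member of the prostate cell surface (chromosome 7, 90154456 to 90164829), had a median of 934 CPM (range 70.8 to 3314) in NPY-high and 377 CPM (range 0 to 2625) in NPY-low cells, with 92.5% above the NPY-low median. Summed, STEAP1 was at 935 against 422 CPM (log2 ratio 1.15, 95% interval 1.06 to 1.24), and reads may be shared with its close relative STEAP1B. ACPP, prostatic acid phosphatase, was at 2608 against 1327 CPM (0.97, 0.92 to 1.02), and 82.9% of NPY-high cells were above the NPY-low median. Cells in the top quintile of the androgen-induced share made up 9.05% of NPY-low (5.45 to 13.9%) and 37.7% of NPY-high cells (30.9 to 44.8%), or 9.42% and 38.3% after thinning.

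ERG, the transcription factor that the VCaP fusion places behind the TMPRSS2 promoter, was also higher. Its gene spans 38380027 to 38661780 of chromosome 21. It was at 141 CPM in NPY-high and 69.4 CPM in NPY-low cells (log2 ratio 1.01, 95% interval 0.80 to 1.24). All 6 tested members of the ERG-associated list were above 0, with a median of 0.40, but ERG alone passed 1.5-fold. CRISP3, a secreted protein that often accompanies ERG fusions, was at 345 against 248 CPM (0.47), and TDRD1, a germ cell protein, at 176 against 160 CPM (0.14).

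The other genes among the 12 highest came from varied functions. SPOCK1, a matrix proteoglycan, was at 62.4 against 24.1 CPM (log2 ratio 1.34, 95% interval 1.01 to 1.75). BBS4, a subunit of the complex that carries cargo to cilia, was at 66.4 against 26.6 CPM (1.29). PHLDA2, a small imprinted growth regulator, ENDOD1, an endonuclease domain protein, and AKAP12, a scaffold for protein kinase A, lay at 1.18, 1.17 and 0.99. DDC, the decarboxylase that makes dopamine and serotonin, had the highest ratio among tested genes (42.3 against 16.0 CPM, 1.35), but 1 cell held 21.5% of its NPY-high UMIs.

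Genes that process or store peptides lay near 0. Of the NPY family and receptors, only PYY and NPY2R had a row, and together they had 3 UMIs in each group. Of 6 tested genes of peptide processing and secretory granules, RAB3B, a vesicle GTPase, was the 1 past 1.5-fold, at 70.7 against 46.2 CPM (0.60), and the list median was 0.11. The granule proteins CHGB and SCG3 were at 75.5 against 88.2 CPM (-0.22) and 158 against 161 CPM (-0.02). PCSK1, a convertase of neuropeptide precursors, had 0 UMIs in both groups, and PAM, which amidates peptides, was at 0.54 and 0.55 CPM. Of 3 tested neuroendocrine markers 0 passed 1.5-fold. CHGA, under the minimum for testing, was at 18.2 against 10.8 CPM.

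Secretory and stress genes lay near or slightly below 0. None of 30 tested genes of ER chaperones and protein entry passed 1.5-fold, with a median of -0.06. The largest difference in that list was HSP90B1, the ER form of HSP90, at 2420 against 3564 CPM (-0.56, 95% interval -0.60 to -0.52), followed by MANF at 244 against 359 CPM (-0.55) and HSPA5, also called BiP, at 1170 against 1699 CPM (-0.54). In the ATF4 amino acid response, 9 of 11 tested genes were below 0, with a median of -0.23. At least 1.5-fold lower were 2 of the 11, beside 3.67% of all genes tested. These were ATF4 itself, the transcription factor (76.9 against 119 CPM, -0.63), and PSPH, an enzyme of serine synthesis (37.2 against 57.0 CPM, -0.60). Ranked within bins of S plus G2M share, as described further on, both were short of 1.5-fold, at -0.38 and -0.44. Of 22 tested genes of cholesterol and fatty acid synthesis, 20 were below 0, with a median of -0.14 and 0 past 1.5-fold. Neither 81 cytosolic ribosomal protein genes (median 0.09) nor 13 mitochondrially encoded genes (0.02) held one past 1.5-fold. MYC was at 340 and 346 CPM (-0.03, -0.14 to 0.09).

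The remaining lists held few genes past 1.5-fold. In the mTORC1 list, 2 of 32 tested genes were higher and 4 lower, beside 1.89% and 3.67% of all genes tested, with a median of -0.17. Its highest ratios were those of MCM2 and MCM4 and its lowest those of PLK1 and AURKA, cell cycle genes already given above. Glycolysis and hypoxia genes (14 tested, median -0.10), luminal epithelial genes (15, 0.10), immediate early genes (11, 0.07), nuclear respiratory chain subunits (76, 0.03) and histone genes (7, -0.03) had 0 past 1.5-fold in either direction. The same count of 0 held for matricellular genes (4, 0.03), metallothioneins (3, 0.04), interferon-stimulated genes (3, 0.21), prostate long noncoding RNAs (2, 0.20), MHC class I genes (2, -0.26) and the nuclear-retained RNAs MALAT1 and NEAT1 (2, 0.12). PLA2G2A was the 1 lower gene among 4 tested gastrointestinal-lineage genes, whose median was 0.04. Among basal markers KRT14 alone had a row, at 2.14 and 0.83 CPM, and LUM was the 1 tested fibroblast marker, at 24.6 and 20.2 CPM.

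Among lower genes outside mitosis, GOLIM4, a Golgi membrane protein that cycles cargo, stood at 264 against 546 CPM (log2 ratio -1.05, 95% interval -1.16 to -0.94). ANXA2, a calcium-dependent membrane binding protein, was at 29.2 against 65.8 CPM (-1.15). PLA2G2A, a secreted phospholipase, was at 30.8 against 67.2 CPM (-1.10), with 17.7% of the NPY-low UMIs in 1 cell.

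Signatures given with the study were read in the same cells, beside the 3.67% lower and 1.89% higher of all genes tested. Of 16 tested Persist genes, 13 were at least 1.5-fold lower in NPY-high cells (median -1.64), and 9 G2M list genes are also Persist genes. Of 471 tested genes of persistent clusters, 131 were lower and 18 higher (median -0.20), and the 131 include each lower gene of the G2M and Persist lists. Within the bins of S plus G2M share, 10 of 16 Persist genes (median -0.65) and 49 of 474 genes of persistent clusters (median -0.07) were lower. Of all 5342 genes tested in those bins, 67 were lower. Within bins of G2M share alone these were 4 of 16 (-0.47) and 19 of 474 (-0.05), beside 41 of all 5342 genes tested. Of 120 tested genes of initial clusters, 11 were higher and 1 lower (median 0.10). ENZ-induced clusters (2 of 132 higher, 4 lower), PROSGenesis (2 of 33 higher, 1 lower) and MYC targets V1 (7 of 189 higher, 5 lower) had medians of 0.01, -0.00 and -0.03. Of the S phase list 9 genes are also in MYC targets V1. The highest ratios of MYC targets V1 were those of MCM6 and MCM5, and the lowest those of CDC20 and CCNA2, all genes of the cell cycle.

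**Figure D4:**
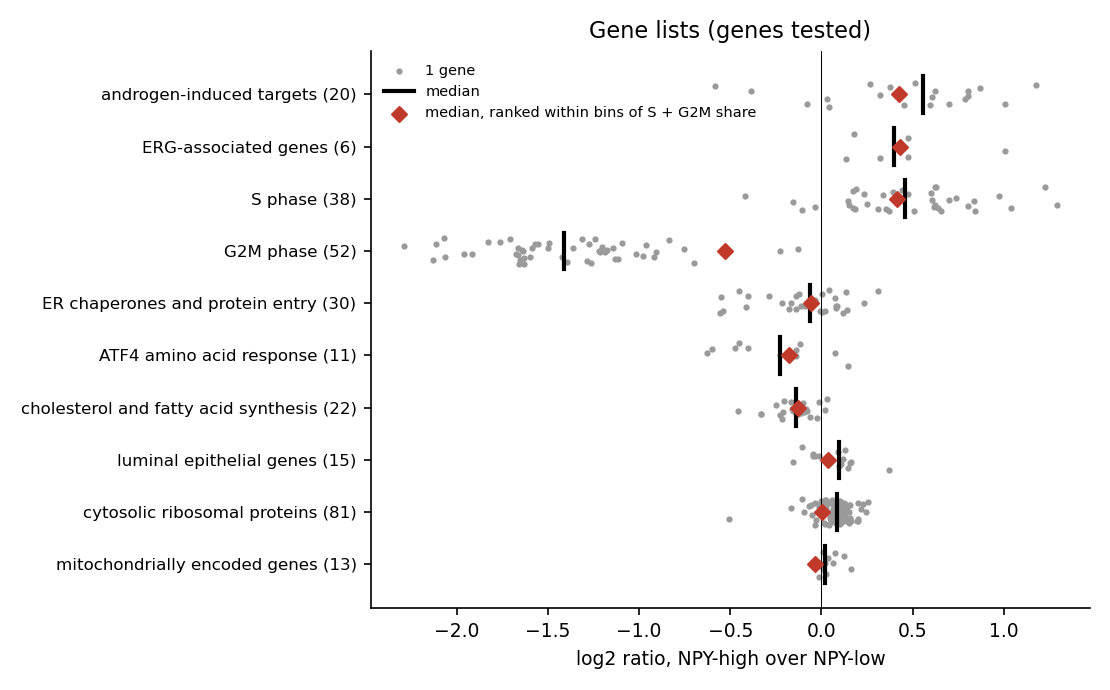
Log2 ratio of NPY-high over NPY-low cells for the tested genes of 10 lists (grey points, 1 per gene; the number tested stands in brackets), with the list median as a black bar. Red diamonds mark the median when cells were ranked by NPY within 5 bins of their S plus G2M share: the G2M median moves from -1.41 to -0.53 and the androgen-induced median from 0.56 to 0.43.

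Because mitotic content moved with NPY, the ranking was repeated within 5 bins of the S plus G2M share of UMIs, which left 197 cells at each end. There, 58 of 5342 genes tested were at least 1.5-fold higher and 67 lower. Of these, 46 and 60 were among the 101 and 196 above, or 45.5% and 30.6% of them. The androgen-induced median was 0.43, with 17 of 20 above 0 and 3 past 1.5-fold. STEAP1 was at 892 against 461 CPM (0.95), KLK2 at 1916 against 1226 CPM (0.64), ACPP at 2495 against 1564 CPM (0.67) and ERG at 128 against 74.4 CPM (0.78). FKBP5, PMEPA1 and TMPRSS2, at 0.53, 0.49 and 0.43, no longer reached 1.5-fold. The G2M median was -0.53 with 19 of 52 past 1.5-fold, and the S phase median 0.41 with 39 of 39 above 0 and 5 past 1.5-fold. These bins were cut on the sum of both shares, so the S phase and G2M medians within them are not independent of each other. How far this bears on either median was not tested. In bins of G2M share alone the S phase median was 0.37, with 37 of 37 above 0 and 3 past 1.5-fold. In the 348 cells at or below the median of both shares it was 0.17, with 14 of 22 above 0. The G2M median in these cells, which were selected on low levels of both lists, was 0.076, with 14 of 26 above 0. Outside mitosis and within bins of S plus G2M share, GOLIM4 (-0.88) and ANXA2 (-0.86) stayed past 1.5-fold, as did PLA2G2A at 27.1 against 55.3 CPM.

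Cells that entered neither end gave the same directions for most of these genes. Between quintiles 4 and 2 by NPY, 18 of 5328 genes tested (0.338%) were at least 1.5-fold higher and 51 (0.957%) lower with more NPY. Of the 101 higher genes 84 (83.2%) were also above 0 there, and of the 196 lower genes 184 (93.9%) were below 0, where 49.5% of all genes tested were above 0. Past 1.5-fold in the same direction were 7 of the 101 and 47 of the 196. Between quintiles 4 and 2 the androgen-induced median was 0.13, with 13 of 20 above 0, against 0.56 between the ends. The S phase median was 0.31, with 35 of 38 above 0, and the G2M median -0.54, with 1 of 52 above 0. ERG ran through the 5 quintiles at 69.4, 87.9, 108, 118 and 141 CPM. STEAP1 ran at 422, 576, 637, 706 and 935 CPM, and TOP2A at 1722, 1274, 993, 784 and 553 CPM. A strict upward order over all 5 quintiles was found for 37 of the 101 higher genes and for 170 of all 5337, and a strict downward order for 134 of the 196 lower genes and for 285 of all. The outer quintiles chose these genes, so their order over all 5 partly restates the choice. For PHLDA2 the log2 ratio of quintile 4 over quintile 2 was -0.01, and for SLC45A3 it was 0.14 (95% interval -0.07 to 0.36), against 1.18 for both between the ends.

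**Figure D5:**
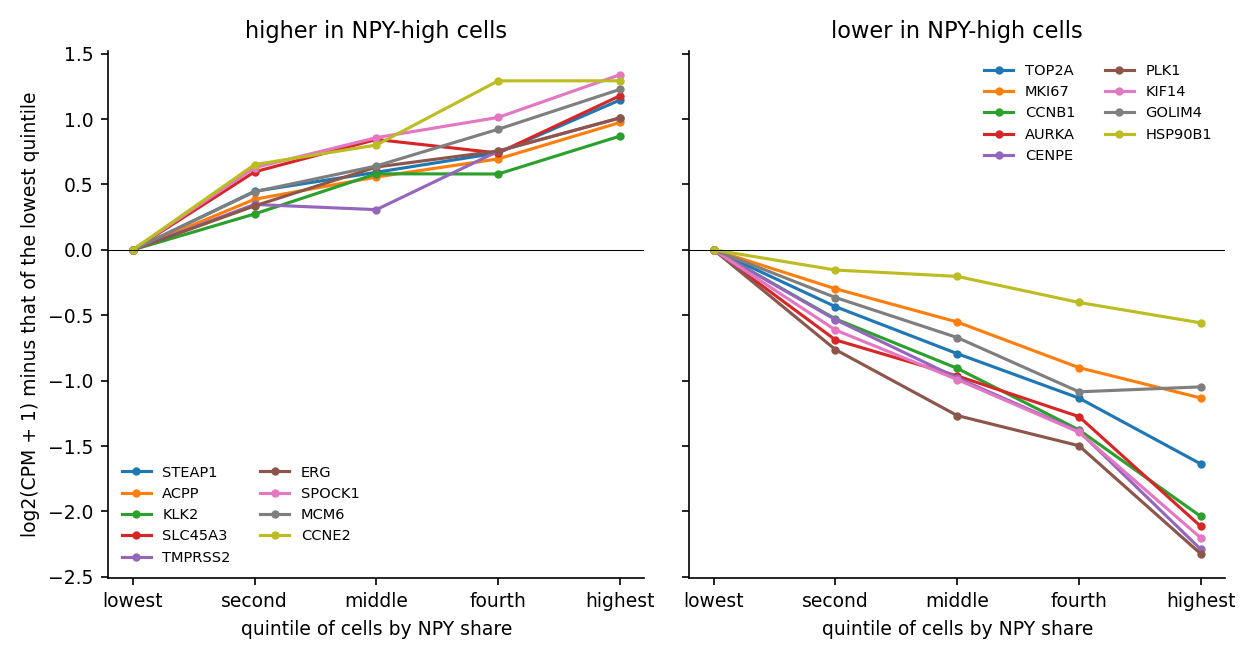
Log2(CPM + 1) of 9 higher (left) and 9 lower (right) genes in quintiles of VCaP parental cells by NPY share, minus the value in the lowest quintile. The mitotic genes run step by step down to between -1.13 at MKI67 and -2.32 at PLK1, while STEAP1, ACPP and ERG reach 1.15, 0.97 and 1.01, and HSP90B1 ends at -0.56, short of 1.5-fold.

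The rule was also applied to VCaP–ENZ48, where it meets far less NPY. Of its 947 cells 616 had no NPY UMI, so all 189 cells of the low end were at 0 and their choice rested on column order. Those cells had a median of 3788 UMIs, against 9636 for the 189 cells of the high end. In that form 328 of 5292 genes (6.2%) were at least 1.5-fold higher and 124 (2.34%) lower, with the difference in depth between both ends. Ranking within 5 bins of depth, an alternative added after the data were seen, gave 187 cells at each end with medians of 11029 and 9819 UMIs and NPY at 465 and 0 CPM. NPY UMIs per cell of the high end ran from 1 to 89 under the rule itself. Within depth bins they ran from 0 to 89, with 6 cells at 0. A cell of the high end can thus hold few or no NPY UMIs. Within depth bins 119 of 5304 genes (2.24%) were higher and 24 (0.452%) lower.

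Under ENZ and within depth bins, most S phase genes lay on the same side as in the vehicle and most tested mitotic genes on the other. Of 21 tested S phase genes 13 were at least 1.5-fold higher and the median was 0.75. Of 22 tested G2M genes 11 were at least 1.5-fold higher and 0 lower, and the median was 0.58. TOP2A was at 80.2 against 39.7 CPM (log2 ratio 1.00, 95% interval 0.66 to 1.38) and MKI67 at 28.5 against 12.5 CPM (1.13), far below their vehicle levels. Without depth bins, under the rule itself, 6 of 25 tested G2M genes were higher and 2 lower, with a median of 0.22. There TOP2A was at 0.12 (95% interval -0.31 to 0.57) and MKI67 at 0.18 (-0.54 to 0.99), while AURKA at -0.84 (-1.60 to -0.11) and CENPE at -1.07 (-1.78 to -0.41) lay on the vehicle side. Within depth bins the androgen-induced median was 0.15, with 12 of 17 above 0 and 1 past 1.5-fold. Under the rule itself it was 0.24, with 14 of 17 above 0 and 0 past 1.5-fold. SLC45A3 within depth bins was at 32.3 against 17.2 CPM (0.87) and STEAP1 at 470 against 311 CPM (0.59). In the same bins ACPP was at 3490 against 3776 CPM (-0.11). TMPRSS2, under the minimum for testing in this library, was at 13.8 against 17.7 CPM (-0.34). Under the rule itself SLC45A3, STEAP1, ACPP and TMPRSS2 lay at 0.38, 0.35, -0.39 and -0.65. Of the 73 higher vehicle genes tested within depth bins 55 (75.3%) were above 0, where 58.7% of all genes were. Of the 86 lower vehicle genes tested 31 (36.0%) were below 0. The difference between the libraries has no replicate and was not tested.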

How the data were processed

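Cells were taken from Drop-seq libraries of 3 samples. The authors aligned reads to GRCh38 with STAR and made matrices with the Drop-seq tools and Picard, with Gencode version 33 and an expected 1000 cells per sample. The deposited matrices hold whole-number UMI counts, not normalized, with 1000 barcodes per file and no cell filter stated for them.

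Cells with at least 500 UMIs, 300 genes and at most 25% mitochondrial UMIs were kept. Doublets were not called; barcodes above 3 times the median depth were left out as an alternative. Gene CPM used all UMIs other than NPY as the total, and NPY CPM used all UMIs. Ties in rank followed column order. Intervals are exact (Poisson for sums, conditional for ratios, Clopper-Pearson for shares) at 95%. Steps were tested on simulated data. Coordinates are from Gencode version 44, a later annotation on the same build.

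The members and the 37 gene lists were chosen with earlier results of these data known, so neither is independent of them. S and G2M genes came from Seurat, the others from signatures given with the study or from writing for this comparison, and 1422 of 1468 distinct genes were matched to rows, 25 under another symbol. Named genes were the 12 highest and 12 lowest ratios among genes that reached 50 CPM in 1 of both groups with no cell above 10% of the UMIs, 10 fixed genes, and up to 2 at each end of every list. Other named genes were chosen after their values were seen. Some genes are not reported here. Python 3.11.15 (numpy 2.4.6, pandas 2.3.3, scipy 1.17.1, matplotlib 3.10.9) and R 4.3.3 with edgeR 4.0.16 (TMM factors only) were used.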

Additional observations from a re-analysis of the deposited data

Results flagged for a closer look

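Of 48 named genes past 1.5-fold in VCaP parental, 22 had a ratio on the other side of 0 in VCaP–ENZ48 ranked within depth bins, and so had 14 of 28 list medians. The gene count had no minimum level in VCaP–ENZ48, and the list count no minimum distance from 0. PLK1, for example, was at 1.72 against 0.86 CPM in VCaP–ENZ48. The PROSGenesis median was -0.00 in VCaP parental and 0.04 in VCaP–ENZ48. Singled out here are the genes past 1.5-fold in both libraries with a mean of at least 20 CPM in VCaP–ENZ48, and the list medians past 1.5-fold in VCaP parental. The G2M phase list median was -1.41 in VCaP parental and 0.58 in VCaP–ENZ48. The median of the Persist list, which shares 9 genes with it, was -1.64 and 0.25. CCNB1 had a log2 ratio of -2.04 and 1.27, TOP2A -1.64 and 1.00, and MKI67 -1.13 and 1.13. PLA2G2A had -1.10 and 0.63, with 17.7% of its NPY-low UMIs in 1 vehicle cell. Without depth bins the values in VCaP–ENZ48 were 0.22 for the G2M phase list, 0.12 for the Persist list, 0.41 for CCNB1, 0.12 for TOP2A and 0.18 for MKI67, and PLA2G2A at -0.18 kept the sign of VCaP parental. The difference between the libraries was not tested, since each is a single library. NPY itself was 2212 CPM in VCaP parental and 110 CPM in VCaP–ENZ48, and all low-end cells of the latter had 0 NPY UMIs. The high end of VCaP–ENZ48 within depth bins also held 6 cells at 0.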

How the results depend on the processing

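A count of genes was taken as moved beyond 1.5 times and a list median beyond 0.1 on the log2 scale. In VCaP parental, the 101 higher and 196 lower genes became 490 and 618 with barcodes ending in a base only (27 cells at each end), 255 and 308 with the top and bottom 10%, 433 and 411 at a minimum of 5 CPM, 42 and 122 at a minimum of 50 CPM, and 58 and 67 within bins of S plus G2M share. Genes tested were 5337 in the main comparison, 9422 at a minimum of 5 CPM and 2971 at a minimum of 50 CPM. They were 6254 with a total free of mitochondrial and ribosomal protein genes. Higher genes alone moved to 52 with the top and bottom 332 cells, 186 after thinning and 165 with that total. In bins of G2M share they were 52 and 41, and in the 348 cells at or below the median of both shares 195 were higher; both alternatives were chosen after seeing the data. The androgen-induced median (0.56) was 0.40 with barcodes ending in a base, 0.68 with 10%, 0.37 with 332 cells at each end, 0.45 at 50 CPM, 0.43 and 0.41 in both kinds of bins and 0.42 in the 348 cells. The S phase median (0.46) was 0.76 with barcodes ending in a base and 0.17 in the 348 cells. The G2M median (-1.41) was -1.87, -1.85 and -1.15 with barcodes ending in a base, 10% and 332 cells, -1.52 within depth bins, -0.53 and -0.37 in both kinds of cycle bins, and turned to 0.076 in the 348 cells, which were selected on low levels of these genes. There CCNA2 (0.89), CDC20 (0.14), GTSE1 (0.27), CCNB1 (0.014), CEP55 (0.49), PIMREG (0.10), KIF18A (1.29), AURKA (0.25), KIF14 (0.77), CENPE (0.40) and MCM4 (-0.015) also changed sign. DDC turned to -1.33 with barcodes ending in a base. Of 577 values of 29 other list medians over all settings 506 stayed within 0.1 and 71 moved further. Of the 577, 62 values in 17 lists changed sign, such as matricellular genes from 0.03 to -1.02 and metallothioneins from 0.04 to -0.33 in the 348 cells and histone genes from -0.03 to 0.26 in bins of G2M share, and only 1 of the 29 medians was past 1.5-fold at first. Of 2560 values of 128 named genes 2194 stayed within the 95% interval of the reported ratio, 354 moved out of it and these 12 changed sign from past 1.5-fold, among 79 sign changes in 51 genes. The cause of these changes was not tested. No paired analysis was possible because no result comes from a test and the groups are cells of a single library.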

Other observations

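Some genes outside the lists differed between NPY-high and NPY-low cells about as much within bins of S plus G2M share as without them. They were chosen after their values were seen. TMEFF2, a membrane protein of prostate and brain, was at 241 against 124 CPM (log2 ratio 0.95, and 0.97 within bins). MCCC2, a subunit of the carboxylase of leucine breakdown, was at 600 against 314 CPM (0.93 and 0.84). GPX3, a secreted glutathione peroxidase, was at 34.8 against 16.3 CPM (1.05 and 1.19), and TTR, the secreted carrier of thyroid hormone and retinol, at 61.9 against 39.6 CPM (0.63 and 0.59).

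NMU, the neuropeptide neuromedin U, was at 39.1 CPM in NPY-high and 123 CPM in NPY-low cells (-1.63). Its difference was smaller within bins (-1.04). GAL, the neuropeptide galanin, was at 49.0 against 34.6 CPM (0.49 and 0.41), short of 1.5-fold. SERPINI1, neuroserpin, an inhibitor secreted by neurons, was at 72.0 against 120 CPM (-0.73 and -0.79). LITAF, a protein of endosome membranes, was at 19.01 against 40.9 CPM (-1.07 and -1.04).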
